A study of Canis lupus familiaris with 6 samples.

Results

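The Notch receptors NOTCH1, NOTCH2, NOTCH3 and NOTCH4, the ligands JAG1, JAG2 and DLL1, and the Notch target genes HES1, HEY1 and NRARP were examined in dog kidney epithelial cells carrying an oncogenic Ras. These 10 genes were chosen by name, and every non-control probe of the array that carried one of the names was taken, 8 of 43603 probes. They stood for 7 genes, with 2 probes for HEY1 and 1 for each of the others. NOTCH4, DLL1 and HES1 had no probe under their names and were not analysed here. A probe under another name is described as a HES1 protein and was not counted.

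The cells were MDCK-pTR GFP-RasV12 cells, a derivative of the canine kidney epithelial line MDCK in which tetracycline switches on GFP-tagged RasV12, a constitutively active Ras. They were kept for 24 h with tetracycline on collagen-coated dishes, either alone (3 samples) or mixed with normal MDCK cells, which carry no RasV12 (3 samples), and GFP-positive cells were then collected by flow cytometry in both groups. The comparison asks which RNAs of the RasV12 cells differ when normal epithelial cells surround them. All samples came from 1 cell line, and nothing in the labels says whether they were separate cultures, so p-values measure only the spread between these samples. The labels give 10 normal cells per RasV12 cell for mixed replicates 1 and 3 and 100 for replicate 2, whereas the methods give only 10. One label field, on RNA extraction, names a line with an added β-catenin mutant, against the titles and the methods.

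Each sample was hybridised to one 1-colour array, and between 60.8% and 66.4% of probes on an array were well above background. The 3 arrays of cells cultured alone lay on 1 slide and the 3 of mixed culture on another, so slide and culture cannot be told apart in any difference given here. Of the markers of kidney epithelium, 7 of 9 had a probe and all 7 were well above background on all 6 arrays. The leukocyte gene PTPRC, the endothelial gene CDH5 and the fibroblast genes COL3A1 and PDGFRA were well above background on none. Over all probes tested, 2978 of 26534 passed the test between the cultures, 1459 being higher and 1519 lower in mixed culture. With the arrays scaled to spike-in controls, which shifts the median of all log2 differences by -0.16, 995 passed, 301 higher and 694 lower. Without alone replicate 1, which lay nearest to the mixed arrays for many of the genes named here, 7335 passed, and without alone replicates 2 or 3 or mixed replicates 2 or 3, between 7 and 24 passed.

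Notch is a receptor that is cut when a ligand on a neighbouring cell binds it. ADAM proteases and then the γ-secretase complex release its intracellular part, which enters the nucleus and, with RBPJ and Mastermind proteins, switches on target genes such as the HES and HEY repressors and NRARP. Since both receptor and ligand sit in cell membranes, the pathway reports contact between neighbours, and in epithelia it is known for sorting cells into different fates.

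The levels rest on single 60-base probes, and those of NOTCH1 and of both Serrate-type ligands are shown so that the stretch read in each gene can be seen, 5′ to 3′ and in lower case throughout. The JAG2 probe lies on chr8:72536370-72536429, minus strand, of the dog build canFam3. The NOTCH1 probe lies on chr9:49017162-49017221, plus strand. The JAG1 probe lies on chr24:11691077-11691136, plus strand. The array's annotation places them at base 3186 of transcript ENSCAFT00000029230 for JAG2, base 7552 of ENSCAFT00000031242 for NOTCH1 and base 3428 of ENSCAFT00000009074 for JAG1. It does not give the exon, or whether this is coding sequence or UTR, and no other probe of the array shares these sequences.
JAG2: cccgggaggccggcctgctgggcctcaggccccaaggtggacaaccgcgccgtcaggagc
NOTCH1: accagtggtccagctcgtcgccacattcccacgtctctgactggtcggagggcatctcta
JAG1: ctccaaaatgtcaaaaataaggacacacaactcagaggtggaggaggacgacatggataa

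JAG2 RNA was lower in RasV12 cells from mixed culture, while NOTCH1 and HEY1 did not pass the test and the other genes were too dim to be tested. Of the 3 genes that could be tested, 1 was lower and none was higher. Of all 26534 probes tested, 11.2% passed, 5.72% being lower and 5.5% higher in mixed culture, so with 3 genes the count says nothing particular about them. Levels are given as relative signal, the processed intensity of the probe divided by the 75th percentile of its array. A probe was tested where, in at least 1 group, no array had it at background, by limma on log2 values with Benjamini-Hochberg adjustment over all tested probes and a threshold of 0.05.

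**Figure D1:**
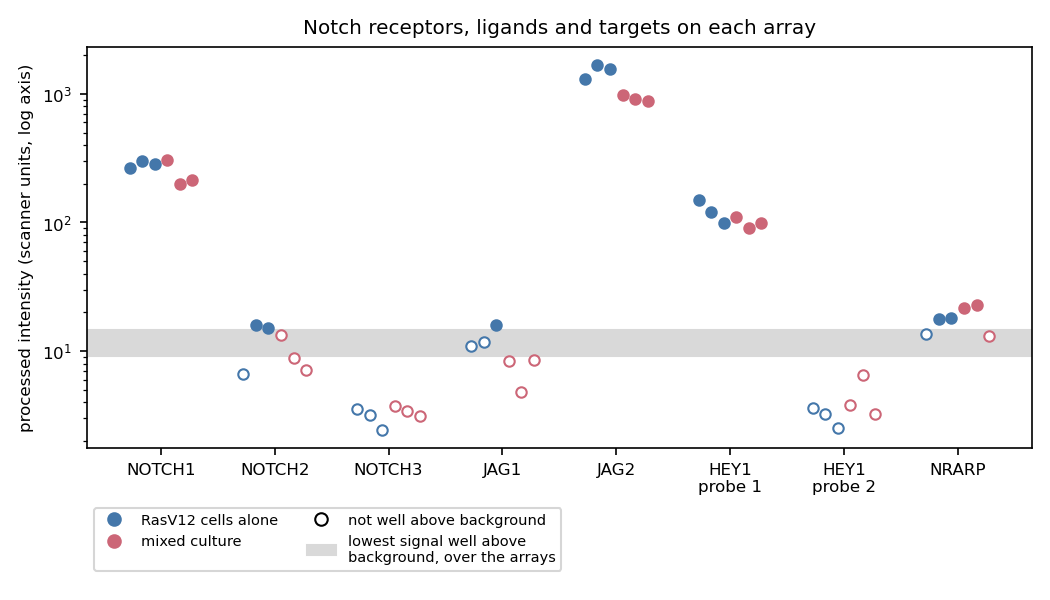
Processed intensity (scanner units, log axis) of the 8 probes on each of the 6 arrays, in replicate order from left to right within each culture. Filled points were well above background and open points were not, and the grey band spans the lowest intensity well above background on the 6 arrays, 9.15 to 14.6. JAG2 lies lower on all 3 mixed arrays, while NOTCH2, JAG1 and NRARP lie near the band. Intensities of different probes cannot be compared as levels.

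JAG2, a Serrate-type ligand that is presented on the cell surface to Notch receptors of neighbouring cells, was well above background on all 6 arrays. Its relative signal was 2.11, 2.39 and 2.40 in the 3 samples cultured alone and 1.55, 1.41 and 1.50 in the 3 mixed samples. Every mixed sample lay under every sample cultured alone, and such a separation was seen for 37.2% of all probes tested. The means were 2.30 ± 0.163 (SD, n = 3) alone and 1.49 ± 0.0732 (SD, n = 3) in mixed culture. The log2 difference was -0.63 with an SE of 0.08 and a 95% interval of -0.83 to -0.43 (adjusted p = 0.0162, limma). The level in mixed culture was thus 64.6% of that alone, with an interval of 56.2% to 74.3%. Among all tested probes 700, or 2.64%, had a larger fall, and the median log2 change of the probes called lower was -0.49.

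The JAG2 difference kept its direction in all 14 alternatives and its log2 value ranged from -0.79 to -0.59, but it did not pass the test in 5 of them. Its adjusted p was 0.0796 without alone replicate 2 and 0.0817 without alone replicate 3. It was 0.0782 without mixed replicate 2, the sample labelled with 100 normal cells, and 0.0845 without mixed replicate 3. It was 0.0750 when probes at background were tested as well. Filters on dim probes, the methods' t-test and the replicate number as a block leave the log2 value unchanged by design. The deposited table holds nearly the same values. These alternatives therefore add nothing to the agreement in direction. Between samples of the same replicate number the log2 difference was -0.45, -0.76 and -0.68.

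JAG1, the other Serrate-type ligand, lay at the limit of detection. Its processed intensity was 11.0, 11.8 and 15.8 alone and 8.32, 4.81 and 8.56 in mixed culture. All mixed values lay under all values of cells cultured alone. Such a separation was seen for 37.2% of all probes tested, a set of brighter probes that leaves JAG1 out. Only 1 of 3 arrays alone, and none in mixed culture, read JAG1 well above background. It was therefore not tested, and no fold is given. When all probes were tested regardless of brightness, its adjusted p was 0.241.

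Of the receptors, only NOTCH1 was well above background throughout. Its relative signal was 0.426, 0.432 and 0.441 alone and 0.487, 0.308 and 0.362 in mixed culture. The samples cultured alone lay close together, while mixed replicate 1 lay above all of them and mixed replicates 2 and 3 below, so the groups overlapped. The log2 difference was -0.19 with an SE of 0.16 and a 95% interval of -0.59 to 0.20 (adjusted p = 0.463, limma). A level in mixed culture of between 66.7% and 115% of that alone is within this interval. The value moved from -0.38 without mixed replicate 1 to -0.04 without mixed replicate 2, and neither passed the test.

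The receptors NOTCH2 and NOTCH3 were dim. The NOTCH2 probe gave an intensity of 6.67, 16.0 and 15.1 alone and 13.4, 8.91 and 7.13 in mixed culture, and it was well above background on 2 of 3 arrays alone and on none in mixed culture. The groups overlapped. The NOTCH3 probe, which lies on chr20:46976787-46977685, plus strand, and spans 899 bases of the genome because it crosses an intron, was well above background on no array. Its intensity was 3.55, 3.17 and 2.43 alone and 3.74, 3.41 and 3.13 in mixed culture, which also overlapped. A difference in either receptor was not detectable with these probes.

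HEY1, a bHLH repressor that is switched on by cleaved Notch, had 2 probes that did not behave alike. All 6 arrays read the probe on chr29:27184236-27184295, minus strand, well above background, and none did so for that on chr29:27185205-27185264, minus strand. The bright probe gave a relative signal of 0.243, 0.172 and 0.153 alone and 0.174, 0.140 and 0.166 in mixed culture. Alone replicate 1 was the highest value and the groups overlapped. The log2 difference was -0.22 with an SE of 0.18 and a 95% interval of -0.66 to 0.22 (adjusted p = 0.450, limma), and it was -0.03 without alone replicate 1. The dim probe gave intensities of 2.54 to 3.61 alone and 3.22 to 6.53 in mixed culture.

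NRARP, a small ankyrin repeat protein induced by Notch that restrains it in turn, was measured by a probe on chr9:48395036-48395095, plus strand. Its intensity was 13.6, 17.7 and 18.2 alone and 21.7, 22.9 and 13.1 in mixed culture. It was well above background on 2 of 3 arrays in each group, so it was not tested. Mixed replicate 3 was the lowest of the 6 values and mixed replicates 1 and 2 were the highest, so the groups overlapped.

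The rest of the pathway was followed in a list of 80 other genes, of which 63 had a probe and 48 could be tested, with 78 probes. Of these probes 11, or 14.1%, passed the test beside 11.2% of all probes, and they belonged to 8 genes. The called probes of DTX3L, KAT2B, CREBBP and PSEN2 were higher in mixed culture, and those of SNAI2, CDKN1A, CCND1 and FBXW7 were lower. The median log2 difference of the 78 probes was 0.06, beside -0.0037 for all tested probes. For each of the 11 probes the values of the cultures lay apart, as they did for 32 of the 78 probes and 37.2% of all probes tested. The 11 were picked by the test between these cultures, so their separation adds no support. Of the 11 probes, 9 were also called with the replicate number as a block. CCND1 (adjusted p = 0.0633) and FBXW7 (adjusted p = 0.0728) were not. Scaled to the spike-in controls, 6 probes of the list were higher and 1 was lower. Without alone replicate 1, 24 probes of the list passed, without mixed replicate 1, 5 passed, and without any other single array 0 passed.

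**Figure D2:**
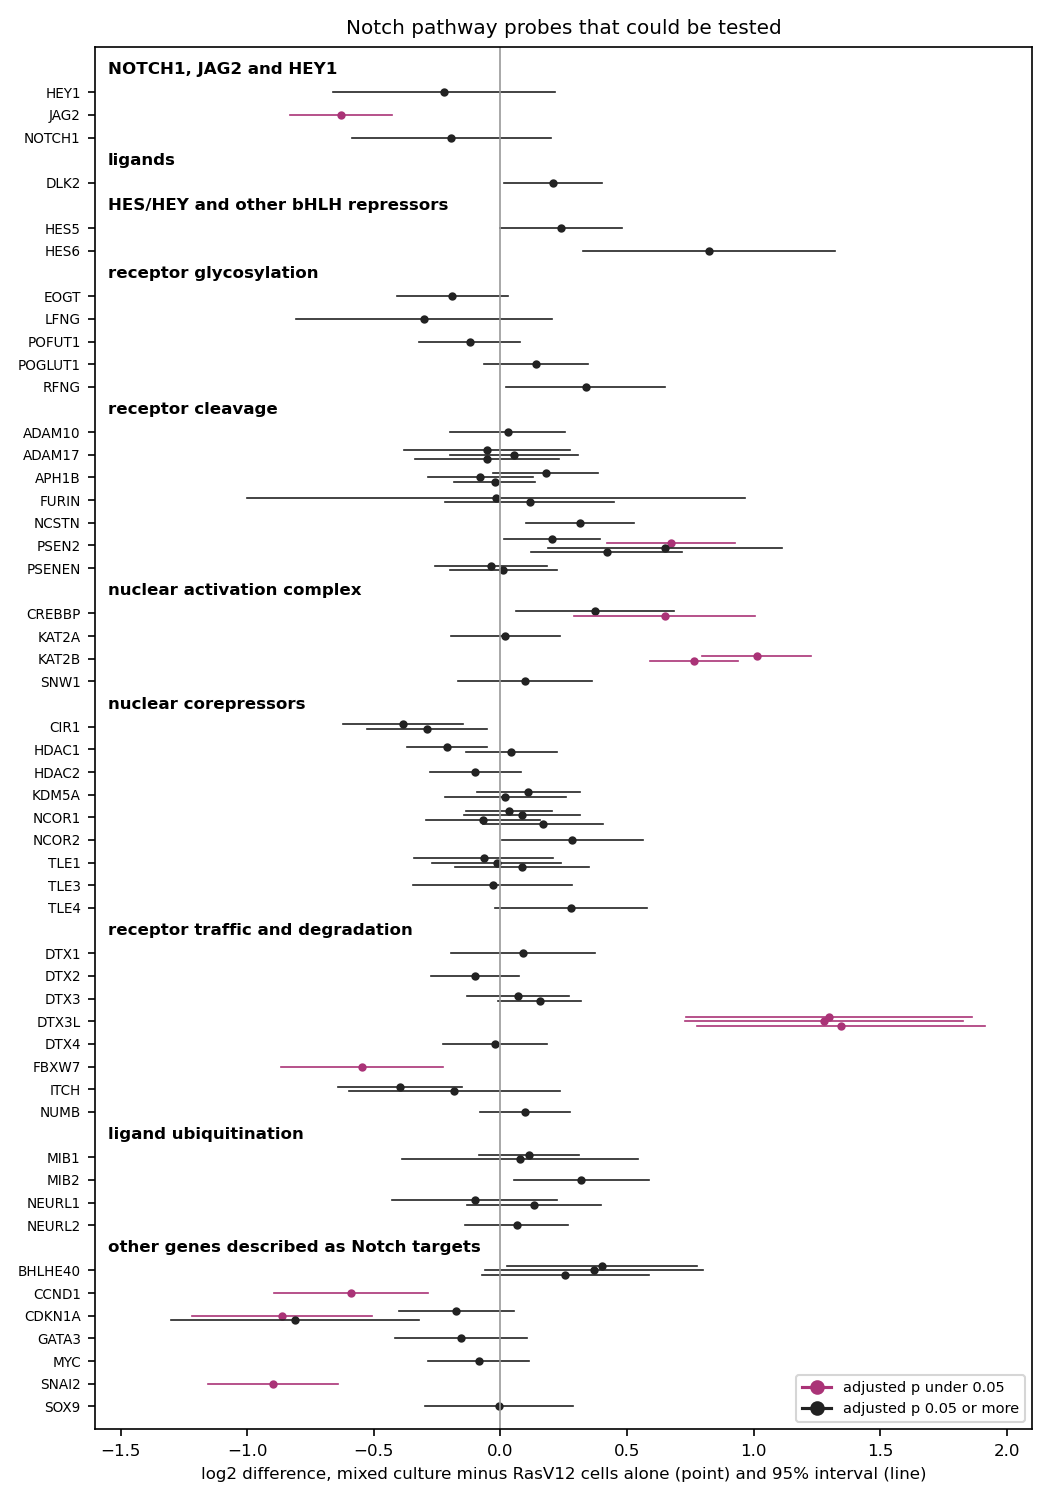
Log2 difference between mixed culture and RasV12 cells alone (points) with its 95% interval (lines) for the tested probes of the genes reported here, grouped by the role of the gene, with several probes of a gene drawn on one row. Coloured probes had an adjusted p under 0.05. JAG2, SNAI2, CDKN1A, CCND1 and FBXW7 lie to the left of 0 and DTX3L, KAT2B, CREBBP and PSEN2 to the right, while the other probes did not pass the test.

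Among the other ligands, only DLK2, a non-canonical ligand, could be tested, and its log2 difference of 0.21 did not pass (adjusted p = 0.137, limma). DLL4 was well above background on no array and DLL3 on 1 of 6. The other HES and HEY genes gave 2 that could be tested. HES5 had a log2 difference of 0.24 (adjusted p = 0.160) on 1 of its 2 probes, the other being dim. HES6, named after its value was seen because it was the only other one, had a log2 difference of 0.82 (adjusted p = 0.0518). This was on 1 of its 2 probes. The other HES6 probe was well above background on 2 of 3 arrays in each group and was not tested. HEY2 was dim on all arrays, and HEYL had no probe under its name.

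Of 18 probes for 8 genes of receptor cleavage, 1 was called, a probe of PSEN2, beside 11.2% of all tested probes. ADAM10, the sheddase that makes the first cut, had a log2 difference of 0.03 (SE 0.09), and the 3 probes of ADAM17, a related sheddase, lay at -0.05, 0.05 and -0.05. These small values changed sign when the arrays were scaled to the spike-in controls or when single arrays were left out. NCSTN, a γ-secretase subunit, lay at 0.31 (adjusted p = 0.0689). PSEN2, a catalytic subunit of that complex, had 4 probes. One had a relative signal of 0.0880, 0.0722 and 0.0692 alone and 0.123, 0.124 and 0.118 in mixed culture, a log2 difference of 0.67 with an SE of 0.11 (adjusted p = 0.0193). The other PSEN2 probes lay at 0.20, 0.42 and 0.65 and did not pass. The brightest of the 4, at 0.20 (adjusted p = 0.136, limma), had a relative signal of 1.76 to 1.96 alone and 2.01 to 2.20 in mixed culture.

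The 5 tested probes of genes that glycosylate the receptor gave no call by limma. Of the 5, 1 had an unadjusted p under 0.05, beside 8342 of all 26534 tested probes. LFNG, a Fringe glycosyltransferase that alters which ligands a receptor responds to, lay at -0.30, RFNG at 0.34 and POFUT1, which adds O-fucose, at -0.12, while MFNG was dim. The 6 tested probes of ligand ubiquitination, which drives ligand endocytosis, gave no call by limma either, with 1 at an unadjusted p under 0.05, and the 2 probes of MIB1, the ligase that acts on ligands such as JAG2, lay at 0.11 and 0.08. With spike-in scaling both MIB1 probes turned negative.

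In the nucleus, 3 of 6 tested probes of the activation complex were higher, beside 5.5% of all tested probes, and 2 of the 3 belong to KAT2B. KAT2B, a histone acetyltransferase, gave a relative signal of 0.640, 0.588 and 0.645 alone and 1.07, 1.03 and 1.08 in mixed culture on its brighter probe. Its 2 probes had log2 differences of 0.77 with an SE of 0.07 (adjusted p = 0.0112) and 1.01 with an SE of 0.09 (adjusted p = 0.0103). CREBBP, another acetyltransferase, was 0.786, 0.575 and 0.533 alone and 0.999, 0.939 and 0.989 in mixed culture on the called probe. This was a log2 difference of 0.65 with an SE of 0.15 (adjusted p = 0.0420), and the second CREBBP probe lay at 0.37 (adjusted p = 0.109). These acetyltransferases also serve many other transcription factors. The 17 tested probes of 9 corepressor genes, which keep target genes off without Notch, gave no call by limma. Of the 17, 4 had an unadjusted p under 0.05, beside 8342 of all 26534 tested probes. RBPJ and MAML1, the core of the complex, had no probe under their names.

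Of the 12 tested probes of receptor traffic and degradation, 4 were called, beside 11.2% of all tested probes, but 3 of these belong to DTX3L, so that 2 of 8 genes were called. DTX3L, a ubiquitin ligase related to Deltex, had the largest rise of the list on all of its 3 probes. The brightest gave a relative signal of 8.88, 4.89 and 5.27 alone and 17.1, 13.1 and 15.2 in mixed culture, and alone replicate 1 lay nearest to the mixed samples. The 3 probes had log2 differences of 1.30, 1.28 and 1.34 with adjusted p from 0.0243 to 0.0253. DTX3L is also known as an interferon-inducible partner of PARP9. FBXW7, the ubiquitin ligase subunit that marks cleaved Notch for degradation, was 1.03, 1.44 and 1.30 alone and 0.912, 0.815 and 0.827 in mixed culture, a log2 difference of -0.55 with an SE of 0.13 (adjusted p = 0.0482). ITCH, another ligase, lay at -0.40 (adjusted p = 0.0550) and -0.18, and NUMB, an endocytic inhibitor of Notch, at 0.10.

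Among genes described elsewhere as Notch targets, 3 of 11 tested probes were called and all 3 were lower, beside 5.72% of all tested probes called lower. SNAI2, a zinc finger repressor linked to loss of epithelial character, was 4.48, 4.79 and 4.93 alone and 2.88, 2.24 and 2.52 in mixed culture. This was a log2 difference of -0.90 with an SE of 0.11 (adjusted p = 0.0136, limma). CCND1, which encodes cyclin D1, was 9.77, 12.7 and 12.6 alone and 8.48, 7.23 and 7.50 in mixed culture, a log2 difference of -0.59 with an SE of 0.13 (adjusted p = 0.0366). CDKN1A, the cell cycle inhibitor p21, was 107, 157 and 142 alone and 77.5, 73.8 and 69.1 in mixed culture on the called probe. Its log2 difference was -0.86 with an SE of 0.15 (adjusted p = 0.0233), and its other probes lay at -0.81 (adjusted p = 0.0518) and -0.17. These genes also answer to many other signals, Ras among them.

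**Figure D3:**
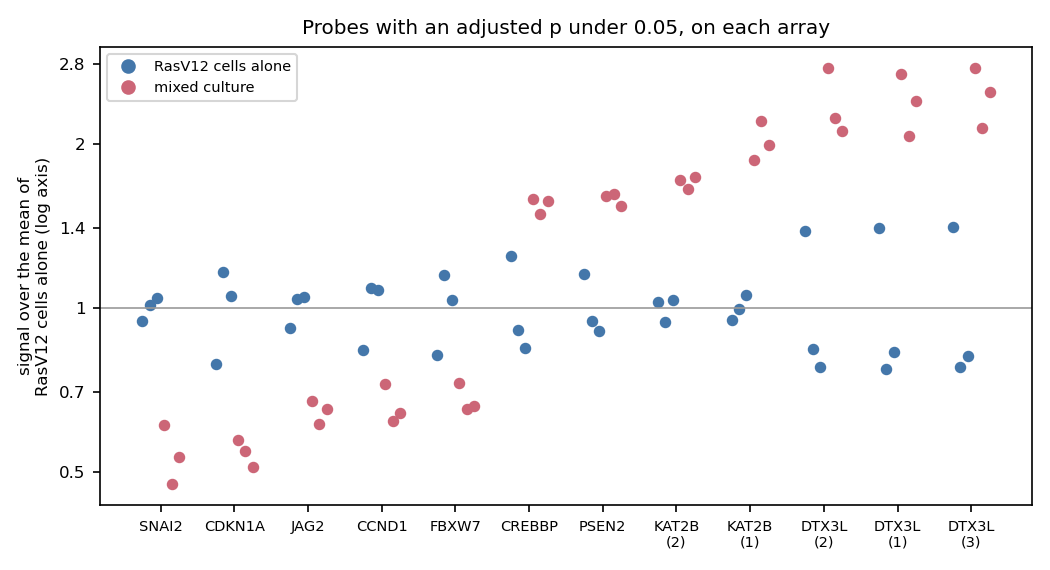
Signal of each called probe on each array, divided by the mean of the 3 samples of RasV12 cells alone (log axis); numbers in brackets mark different probes of a gene. For each of the 12 probes the 3 mixed samples lie on one side of all 3 samples cultured alone. The probes were picked by the test between these cultures, and 37.2% of all tested probes lie apart in this way. Of the samples cultured alone, replicate 1 is the nearest to the mixed samples for JAG2, SNAI2, CDKN1A, CCND1, FBXW7, CREBBP, PSEN2 and DTX3L.

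Over the 6 arrays, the gene of these lists whose profile was most like that of JAG2 was SNAI2 (Pearson r = 0.989 over 6 arrays, among 80 probes compared). The least like it was the called PSEN2 probe (r = -0.985). The arrays fall into 2 cultures that differ in all 3 probes, so the coefficients are a description of 2 clusters and carry no test.

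Some values moved with the cultures beside JAG2. Of 9 genes with a probe that are known to be raised by Ras-MAPK signalling, 2 were lower in mixed culture, the ligand gene EREG by a log2 difference of -0.72 and the AP-1 gene FOSL1 by -0.52, and none was higher, beside 5.72% of all tested probes called lower. The median of the 9 was -0.19. The others did not pass and went both ways. SPRED1 lay at 0.39, SPRY2 at 0.28 and ETV5 at 0.10. SPRY4 lay at -0.58, DUSP5 at -0.56, DUSP6 at -0.19 and HBEGF at -0.00019. The summed relative signal of the 9 was 101 to 108 alone and 85.1 to 102 in mixed culture, so the sums overlapped. No Ras-negative sample was measured, and a smaller share of RasV12 cells among the sorted cells and less RNA per cell cannot be told apart. The part of these values in the JAG2 difference was not tested. The summed signal of the epithelial markers was 454 to 539 alone and 486 to 543 in mixed culture, and the lowest adjusted p of the 7 genes was 0.0648 (CDH1, limma). It was 5.02 to 7.29 against 5.47 to 7.38 for endothelial, 0.239 to 0.264 against 0.254 to 0.268 for fibroblast and 1.57 to 1.73 against 1.73 to 1.82 for leukocyte genes.

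**Figure D4:**
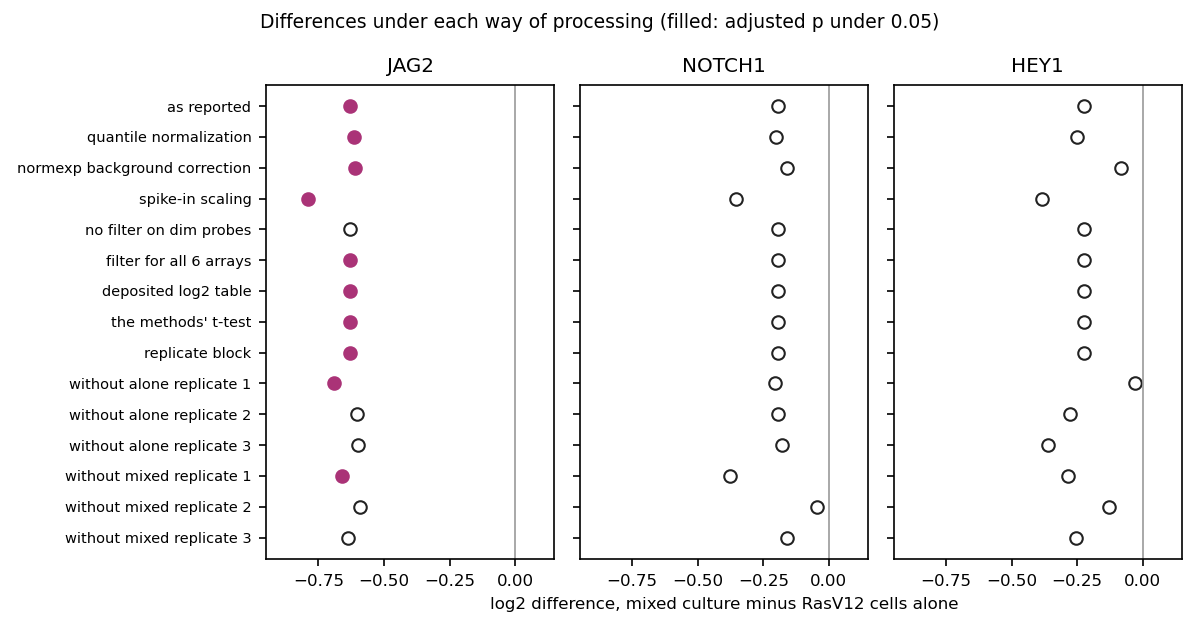
Log2 difference between mixed culture and RasV12 cells alone for JAG2, NOTCH1 and the bright HEY1 probe as reported and under each of 14 alternatives, with filled points where the adjusted p was under 0.05. All points lie to the left of 0, those of JAG2 between -0.79 and -0.59, and no point of NOTCH1 or HEY1 is filled. Points for the filters on dim probes, the methods' t-test and the replicate block equal the reported value by design.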

How the data were processed

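RNA of sorted RasV12 cells was measured on 6 Agilent canine arrays with 43603 probes. The authors deposited scanner files with a processed signal intensity per spot (Agilent Feature Extraction 10.10.1.1), corrected for background by that software, and a table of log2 values. Each column of the deposited log2 table was close to the log2 processed intensity minus a constant, which lay within 0.00104 of the 75th percentile of its array, and single values departed from it by at most 0.0773. The table was used as an alternative.

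Here control spots and outlier flags were left out, and log2 intensity was centred on the 75th percentile of each array (592 to 700). The array number and the brightness of a probe limit the precision. The lowest intensity well above background was 9.15 to 14.6, and the median SD between replicates was 0.128 on the log2 scale. Groups came from the labels, and the difference between cultures was fitted with lmFit and eBayes of limma 3.58.1 in R 4.3.3, two-sided. The same fit was also run on data simulated from the means and spreads of these probes, and its outcome is not given here. Other steps used pandas 2.3.3, numpy 2.4.6 and matplotlib 3.10.9 under Python 3.11.15. Probe positions and names came from the array's annotation.

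The genes and lists were chosen with earlier results of these data known. Named were all probes of the 10 genes, every gene of the wider list with a called probe, and 20 genes of it fixed by name. Of these, 1 gene of the wider list, which enters the counts, and 1 probe sequence are not reported here. Cell type markers were fixed likewise. Replicate numbers are shared by the groups and equal the position on the slide. After group means were removed, arrays with the same number correlated at 0.349, 0.162 and 0.296, each over 0.1. The number was therefore used as a block in an alternative, and the fit reported here left it out. Arrays with different numbers correlated at -0.329 to 0.238. Alternatives were quantile normalization, normexp with an offset of 50, spike-in scaling, other filters on dim probes, the deposited table, the methods' t-test, the replicate block, a 2-fold threshold, 1 probe per gene and leaving out each array. Slide as a block was not run, since no slide held both groups.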

Additional observations from a re-analysis of the deposited data

How the results depend on the processing

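The 36 named probes were recomputed under 14 alternatives each, 504 values in all, and 490 kept their direction. All 168 values of the 12 called probes did. Those that turned were near 0. Values under the filters on dim probes, the methods' t-test and the replicate block could not differ from those reported, and the deposited table hardly differs. The counts of kept directions include these. With spike-in scaling, which moves all log2 differences by -0.16, MIB1 became -0.047 and -0.082, ADAM10 -0.13, an ADAM17 probe -0.11 and NUMB -0.063. ADAM10 was -0.0038 with quantile normalization, and an ADAM17 probe was 0.032 with normexp. Leaving out single arrays moved a MIB1 probe between -0.15 and 0.22, ADAM10 between -0.042 and 0.082, and the ADAM17 probes between -0.16 and 0.045, between -0.00093 and 0.13 and between -0.11 and 0.066.

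Counts moved more. With spike-in scaling 995 probes passed (301 higher, 694 lower) and 7 of the wider list (6 higher, 1 lower). With no filter on dim probes 12 passed, with 0 of the first 10 genes and 0 of the wider list, where 43603 probes were tested and the JAG2 adjusted p was 0.0750. By the methods' t-test, 828 passed with Benjamini-Hochberg adjustment and 7313 unadjusted, and 3 and 22 of the wider list. Probes past the test that also changed 2-fold numbered 300 over all, 0 of the first 10 genes and 4 of the wider list. Normexp gave 18 of the wider list, and 1 probe per gene gave 7. Leaving out 1 array gave 7 to 7335 over all, 0 to 1 of the first 10 genes and 0 to 24 of the wider list, the highest without alone replicate 1 and 0 without alone replicates 2 or 3 or mixed replicates 2 or 3. The cause was not tested. With the replicate block 2825 passed over all, 1 of the first 10 genes and 9 of the wider list. JAG2 kept its call (adjusted p = 0.0351), and apart from CCND1 and FBXW7 the block changed no other call of the named probes. NOTCH2, NOTCH3, JAG1 and NRARP are limited by signal near background.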
